A study of Mus musculus with 19 samples.

Results

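SOX3 occupancy was examined at the promoters of 44 genes of the WNT pathway, which were taken as a named list of 19 WNT ligands, 15 receptors, 7 intracellular effectors and 3 secreted inhibitors out of the 26182 genes with a curated RefSeq transcript on mm10. A gene was called bound in a replicate when a peak of that replicate's SOX3 ChIP-seq list lay within 2 kb of at least 1 of its annotated start sites. The rule for choosing the genes used no value from the peak lists, although the genes were chosen with earlier results of these data known.

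The series is a set of chromatin immunoprecipitation libraries made from mouse testis at postnatal day 7 (P7) or from THY1+ undifferentiated spermatogonia (uSPG), the fraction that includes the spermatogonial stem cells. Used here were 2 biological replicates of SOX3 ChIP-seq and 2 of SOX3 ChIP-nexus, an assay that trims immunoprecipitated DNA with an exonuclease to sharpen the bound position. All of them came from whole P7 testis, which for the factor libraries meant seminiferous tubules pooled from several mice of a C57BL/6J background, with a pair of antibodies to SOX3. The labels name no deletion, transgene or treatment for these samples. SOX3 is an SRY-related transcription factor found in undifferentiated spermatogonia, but the tubules also hold Sertoli cells and other cells, so the number of cells with an occupied site and the occupancy per cell cannot be told apart. The lists held 58351 peaks in replicate 1 and 38832 in replicate 2. They carry no read counts, so the depth behind each peak is unknown. For each peak the text gives the q score, read as −10log10 of the adjusted p-value against input, which exceeds 30 throughout the lists, and the log2 ratio of ChIP over input. The columns have no names, so both readings were inferred from their values. With 1 group of 2 replicates there was no contrast to test, and the spread between the replicates is given instead.

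WNT proteins are secreted, lipid-modified ligands that bind Frizzled receptors together with the co-receptors LRP5 and LRP6 at the cell surface. Without a ligand, a complex built on axin marks β-catenin (Ctnnb1) for destruction. With a ligand the complex is held back, and β-catenin enters the nucleus to act with TCF/LEF factors, whose targets include Axin2, a feedback inhibitor of the pathway. DKK and SFRP proteins block ligands or co-receptors outside the cell, whereas the LGR receptors bind R-spondins and strengthen the signal. In the testis, WNT signals from Sertoli and germ cells have been tied to the survival and proliferation of spermatogonia, and WNT4 is better known for its role in the developing ovary.

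The promoters below span the range over which occupancy varied. Each line gives the 250 bases just upstream of 1 start site, 5′ to 3′ on the strand of the gene, from RefSeq sequence on GRCm38.p6, and capitals mark CpG dinucleotides. Ctnnb1 (chr9:120933150-120933399, plus strand) had the strongest peak of all 44 genes, and Axin2 (chr11:108920099-108920348, plus strand) and Lgr4 (chr2:109917397-109917646, plus strand) were strongly bound. Wnt5b (chr6:119544348-119544597, minus strand) and Wnt9a (chr11:59306680-59306929, plus strand) are CpG-dense ligand promoters with weaker peaks. Wnt8b (chr19:44493222-44493471, plus strand) was bound in neither replicate.
Ctnnb1: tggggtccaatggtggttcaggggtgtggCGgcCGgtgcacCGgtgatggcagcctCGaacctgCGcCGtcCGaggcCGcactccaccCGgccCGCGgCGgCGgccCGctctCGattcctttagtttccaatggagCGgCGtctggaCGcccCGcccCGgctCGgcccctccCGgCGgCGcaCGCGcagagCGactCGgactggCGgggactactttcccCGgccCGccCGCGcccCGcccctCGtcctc
Axin2: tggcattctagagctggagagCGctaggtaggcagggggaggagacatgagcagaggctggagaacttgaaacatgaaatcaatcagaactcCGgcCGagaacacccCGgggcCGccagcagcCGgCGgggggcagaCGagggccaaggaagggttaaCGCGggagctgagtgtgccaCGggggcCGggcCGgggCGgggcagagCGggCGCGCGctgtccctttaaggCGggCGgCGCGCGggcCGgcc
Lgr4: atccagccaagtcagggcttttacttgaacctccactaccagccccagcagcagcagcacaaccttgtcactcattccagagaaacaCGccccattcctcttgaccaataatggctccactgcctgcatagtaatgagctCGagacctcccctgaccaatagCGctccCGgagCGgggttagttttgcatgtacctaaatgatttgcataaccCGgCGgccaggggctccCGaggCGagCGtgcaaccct
Wnt5b: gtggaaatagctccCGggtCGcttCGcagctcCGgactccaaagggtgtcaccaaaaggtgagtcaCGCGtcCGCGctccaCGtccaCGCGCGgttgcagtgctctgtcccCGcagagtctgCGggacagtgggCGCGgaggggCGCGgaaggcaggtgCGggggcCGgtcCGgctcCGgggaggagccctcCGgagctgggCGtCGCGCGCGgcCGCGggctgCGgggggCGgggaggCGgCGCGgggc
Wnt9a: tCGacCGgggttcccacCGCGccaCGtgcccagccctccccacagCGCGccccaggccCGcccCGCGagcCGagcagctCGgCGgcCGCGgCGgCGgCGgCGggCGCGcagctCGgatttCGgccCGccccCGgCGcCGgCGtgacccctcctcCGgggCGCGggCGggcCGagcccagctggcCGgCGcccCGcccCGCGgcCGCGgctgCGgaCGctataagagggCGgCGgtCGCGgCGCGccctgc
Wnt8b: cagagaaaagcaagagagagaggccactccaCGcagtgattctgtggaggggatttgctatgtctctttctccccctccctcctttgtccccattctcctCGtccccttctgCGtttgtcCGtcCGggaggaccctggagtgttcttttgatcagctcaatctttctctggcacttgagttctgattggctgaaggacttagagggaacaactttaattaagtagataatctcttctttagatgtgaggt

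These stretches held 35 CpG dinucleotides in Ctnnb1, 24 in Axin2, 10 in Lgr4, 35 in Wnt5b, 48 in Wnt9a and 5 in Wnt8b. The Wnt9a stretch is the most CpG-dense of the 39 member promoters in the RefSeq table, which cover 30 of the 44 genes. Over those 39 promoters the median was 22.0 CpG dinucleotides, against 6.0 over all 32851 promoters in the table. Ctnnb1 and Wnt5b had the same number of CpG dinucleotides, yet both q scores at Ctnnb1 (995.4 and 356.9) were above both at this Wnt5b start site (68.36 and 47.13). The letters ACAATG, a SOX recognition sequence, were found on either strand in 10.7% of all promoters and in 5 of the 39 member promoters (12.8%), those of Wnt1, Wnt16, Lgr6, Tcf7l2 and Lef1. Of these 5, Wnt16, Lgr6 and Lef1 had a promoter peak in replicate 1 alone. The related letters ACAAAG stood in 16.5% of all promoters and in 7 of the 39 (17.9%). TCAAAG, the core recognised by TCF/LEF factors, stood in 13.8% of all promoters and in 5 of the 39 (12.8%), those of Dkk1, Fzd1, Lef1, Wnt11 and Wnt5b. None of the sequences printed above for Ctnnb1, Axin2, Lgr4, Wnt5b and Wnt9a held any of these letters. The TCAAAG of Wnt5b stood in the promoter of another of its start sites.

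A promoter peak was found for 41 of the 44 WNT genes (93.2%) in replicate 1 and for 35 (79.5%) in replicate 2, a mean of 86.36% ± 9.64 (SD, n = 2). Among all 26182 genes the corresponding shares were 62.7% and 54.7%. Peaks in both replicates were found for 33 of the 44 WNT genes (75.0%), against 52.2% of all genes and 57.9% of protein-coding ones. A peak of one replicate overlapped a peak of the other at 31 of the 44 (70.5%), against 50.8% of all genes. As a share of the genes bound in both replicates this was 31 of 33 (93.9%), against 97.4% over all genes. At least 1 replicate had a peak at 43 of the 44, against 65.2% of all genes. A further 8 genes were bound in replicate 1 alone, namely Wnt2b, Wnt3, Wnt8a, Wnt10a, Wnt16, Lgr6, Lef1 and Dkk3. Wnt9b and Dkk1 were bound in replicate 2 alone, and Wnt8b in neither. Exactly 1 replicate had a peak at 10 of the 44 WNT genes and at 3397 of all 26182 genes, a larger share of the WNT genes. Among genes with a peak in at least 1 replicate, the counts were 10 of 43 and 3397 of 17062. Over all genes, 2752 were bound in replicate 1 alone and 645 in replicate 2 alone. The part of the longer list of replicate 1 in this was not tested. Among the 33 genes bound in both, the q scores of the replicates had a Spearman correlation of 0.865 over genes, against 0.844 for the 13665 genes bound in both, with the caller and the tissue shared by all points.

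**Figure D1:**
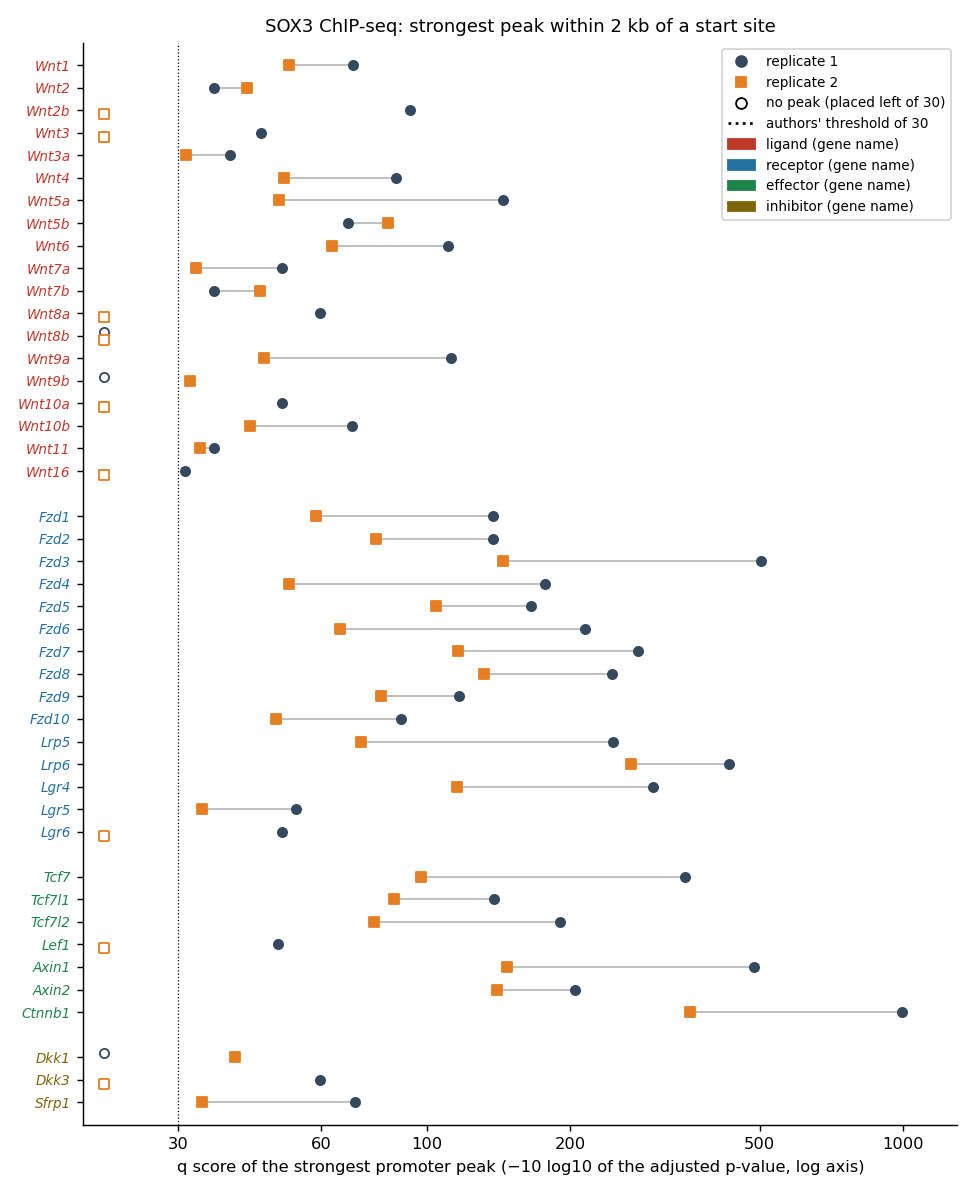
The q score of the strongest SOX3 ChIP-seq peak within 2 kb of a start site (horizontal log axis) is plotted for each of the 44 genes, with a circle for replicate 1, a square for replicate 2 and open symbols left of 30 for genes without a peak. Ligand symbols lie at or below 144.4 in replicate 1 and 82.91 in replicate 2, and 9 of 15 receptors and 5 of 7 effectors lie above 144.4 in replicate 1.

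Among the ligands, 17 of 19 were bound in replicate 1, 13 in replicate 2 and 12 (63.2%) in both. Their peaks had low q scores. The median q score of the strongest promoter peak was 59.7 in replicate 1 and 44.7 in replicate 2, against 165 and 78.8 over all bound genes. The highest q score of any ligand was 144.4 at Wnt5a in replicate 1 and 82.91 at Wnt5b in replicate 2, and 55.5% and 47.4% of all bound genes exceeded those scores. No ligand had a q score above 100 in both replicates, and only Wnt5b and Wnt6 had one above 60 in both.

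Wnt5b and Wnt6 had the highest mean rank of the ligands. Wnt5b, a ligand usually classed as acting without β-catenin, has 3 separate start sites along the gene, and peaks were found at each of them in both replicates. At its most upstream site, whose promoter is shown above, the q scores were 68.36 and 47.13, at the most downstream site 66.28 and 82.91, and at the site between them 55.54 and 35.5. The strongest peak therefore sat at a CpG-rich start (CpG ratio 1.01) in replicate 1 and at a CpG-poor one (0.443) in replicate 2. Wnt6 (chr1:74771892-74785319, plus strand) had a single start site under a broad peak, which ran over 6849 bp in replicate 1 (q score 110.9, log2 ratio 4.23), the widest promoter peak of the 44 genes in that replicate, and over 2709 bp in replicate 2 (q score 63.24, log2 ratio 3.61).

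Wnt5a, known from Sertoli cells as a support of spermatogonial stem cells, was bound at both of its start sites in both replicates. At the upstream site the q scores were 144.4 and 48.83, and at the other 67.2 and 33.93. The peaks at the other site did not overlap, and lay 9 bp from it in replicate 1 and 1648 bp from it in replicate 2. Wnt4, the ovary-promoting ligand, had q scores of 86.33 and 50.02 with peaks over its start site in both replicates. Wnt9a, whose promoter is the CpG-densest shown above, had q scores of 112.5 and 45.59. Wnt7a (49.76 and 32.79), Wnt7b (35.69 and 44.72) and Wnt3a (38.65 and 31.2) were bound in both replicates near the threshold of 30. Wnt7b has a noncoding neighbour, AU022754, whose start site lies within 2 kb of the same peaks, and the 2 cannot be assigned separately.

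At a pair of ligands the replicates marked different places, with no overlapping promoter peak at any start site of the gene. Wnt2 had a peak 444 bp downstream of its start site in replicate 1 (q score 35.69) and another 1264 bp upstream in replicate 2 (41.89). Wnt11, a ligand of cell movement in the embryo, has start sites at chr7:98835112 and chr7:98838845, and the first was bound in replicate 1 (35.69) and the second in replicate 2 (33.32). These are the 2 genes of the 33 at which the peaks of the replicates did not overlap.

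The ligands bound in 1 replicate ranged from a peak well above the threshold to peaks at it. Wnt2b had a peak of 2889 bp over its start in replicate 1 (chr3:104960868-104963756, q score 92.06, log2 ratio 4.02), and in replicate 2 the nearest peak lay 2773 bp from the start. Wnt8a had one of 2545 bp in replicate 1 (q score 59.72, log2 ratio 3.02), with the nearest in replicate 2 at 4189 bp. For Wnt10a the peak in replicate 1 was chr1:74791247-74794720 (q score 49.76, log2 ratio 2.84), and the nearest in replicate 2 lay 2721 bp away. These 3 genes therefore had some peak within 5 kb in both replicates.

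Wnt3 had its peak 104 bp upstream of the start site in replicate 1 (chr11:103772665-103774071, q score 44.83, log2 ratio 3.63), and the nearest in replicate 2 was 3561 bp away inside the gene. Wnt16 had a peak of 473 bp lying 1175 bp downstream of its start in replicate 1 (chr6:22289402-22289874, q score 31.09, log2 ratio 2.4), and no peak of replicate 2 within 49331 bp. Wnt9b, a ligand of kidney tubule formation, was the converse, with a peak of 531 bp in replicate 2 (chr11:103750200-103750730, q score 31.88, log2 ratio 3.33) and the nearest in replicate 1 at 18637 bp. Wnt16 and Wnt9b were the weakest of the genes bound once. Wnt8b, a ligand of the developing forebrain, had its nearest peaks at 5506 bp in replicate 1 (q score 32.6) and 17427 bp in replicate 2 (q score 56.09).

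The distances also show what the 2 kb rule did. Among the strongest promoter peaks of the genes, the farthest from a start lay 1264 bp away at Wnt2 in replicate 2 and 1175 bp away at Wnt16 in replicate 1. Of the genes left without a peak in 1 replicate, those with the nearest one beyond the window were Lgr6, Wnt10a and Wnt2b, where it lay 2069, 2721 and 2773 bp from the start, all in replicate 2.

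Ligand genes that neighbour each other in the genome were not alike in every pair. Wnt1 and Wnt10b on chromosome 15 were bound in both replicates with close q scores, 69.94 and 51.28 for Wnt1 and 69.8 and 42.55 for Wnt10b. Wnt3a and Wnt9a on chromosome 11 were also both bound in both, but the q score of Wnt9a in replicate 1 was 112.5 and that of Wnt3a 38.65. In the other pairs the replicates separated the neighbours. Wnt6 was bound in both replicates and Wnt10a, downstream of it on chromosome 1, in replicate 1 only. Wnt3 was bound in replicate 1 only and Wnt9b in replicate 2 only.

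The receptors were bound more widely. All 15 were bound in replicate 1 and 14 in replicate 2 (93.3% in both), and at these 14 the peaks of the replicates overlapped. The median q score was 177 in replicate 1 and 79.2 in replicate 2, close to the medians over all bound genes (165 and 78.8). A q score above 60 in both replicates was reached by 10 of 15 receptors (66.7%), against 35.2% of all genes, and one above 100 in both by 6 (40.0%), against 19.7% of all genes. These 6 were Fzd3, Fzd5, Fzd7, Fzd8, Lrp6 and Lgr4.

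All 10 Frizzled genes, which encode the membrane-spanning receptors of WNT ligands, were bound in both replicates. Fzd3, a receptor of planar polarity and axon guidance, was the strongest. Its start site on chromosome 14 was covered by chr14:65261402-65263176 in replicate 1 (q score 502.7, log2 ratio 4.64) and by chr14:65261483-65262883 in replicate 2 (q score 144.8, log2 ratio 2.83). In the order of the q score in replicate 1, Fzd7 (277.1 and 116.1), Fzd8 (245.1 and 131.7), Fzd6 (215.2 and 65.71) and Fzd4 (176.7 and 51.28) came next. Fzd5 (165.6 and 104.5), Fzd2 (138 and 78.28), Fzd1 (137.5 and 58.47) and Fzd9 (116.9 and 80.12) followed, and Fzd10 was the lowest of the Frizzled genes in both replicates at 88.32 and 48.26. The lowest Frizzled gene thus had a higher q score than the median ligand in both replicates. The peaks of Fzd4 also covered a start site of Tmem135 and those of Fzd10 a start site of the noncoding Fzd10os, so those peaks belong to shared promoters.

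Lrp6, the co-receptor that WNT ligands engage with Frizzled, ranked highest of the receptors by both replicates together. It was covered by chr6:134565639-134567883 (q score 429.9, log2 ratio 4.15) and chr6:134566090-134567806 (q score 268.8, log2 ratio 3.43). Its paralogue Lrp5 had q scores of 246.4 and 72.68. Among the R-spondin receptors the levels ran from Lgr4 (299 and 115.5) over Lgr5, a marker of many epithelial stem cells (53.23 and 33.64), to Lgr6, bound in replicate 1 only (chr1:135105670-135107778, q score 49.76, log2 ratio 2.84). The nearest peak of replicate 2 lay 2069 bp from the Lgr6 start site. The 3 LGR genes had CpG ratios of 0.825, 0.568 and 0.69 in the same order.

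Of the 7 effectors, all were bound in replicate 1 and 6 in replicate 2 (85.7% in both), and these 6 had q scores above 60 in both replicates. Their median q scores, 204 and 119, were the highest of the 4 classes. Ctnnb1, which encodes β-catenin, had peaks of 2626 bp (chr9:120932368-120934993, q score 995.4, log2 ratio 5.78) and 1999 bp (chr9:120932798-120934796, q score 356.9, log2 ratio 4.3). It stood at the percentiles 99.7 and 99.3 of all bound genes. A start site of the transcript 4930593C16Rik lies within 2 kb of these peaks but outside them.

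Axin1, the scaffold of the β-catenin destruction complex, was next with chr17:26137835-26139644 (q score 487, log2 ratio 4.39) and chr17:26137014-26139478 (q score 147.5, log2 ratio 2.85). Axin2, its paralogue and a target of the pathway, had q scores of 204.5 and 140.6. The TCF/LEF genes encode the DNA-binding partners of β-catenin, and 3 of the 4 were bound in both replicates. Tcf7 had q scores of 349.1 and 97.08, Tcf7l2 of 190.1 and 77.33, and Tcf7l1 of 138.1 and 85.35. The Tcf7l2 peaks covered a start site of the noncoding Gm31734 in both replicates and the Tcf7l2 start itself in replicate 1 only. Its second start site, far inside the gene, had no peak within 2 kb in either replicate. Lef1 was the exception, with a peak of 921 bp in replicate 1 (chr3:131111584-131112504, q score 48.8, log2 ratio 3.03) and the nearest peak of replicate 2 at 3578 bp.

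The 3 inhibitors had low q scores where they were bound. Sfrp1, which binds WNT ligands outside the cell, was bound in both replicates (chr8:23411240-23412101, q score 70.67, log2 ratio 3.02, and chr8:23411386-23412068, q score 33.64, log2 ratio 2.15), although its CpG ratio of 1.04 was among the highest of the 44 genes. Dkk1, which blocks LRP5 and LRP6, was bound in replicate 2 only (chr19:30548840-30549574, q score 39.55, log2 ratio 3.14), and replicate 1 had no peak within 295623 bp. Dkk3, a divergent relative, was bound in replicate 1 only (chr7:112157751-112159464, q score 59.72, log2 ratio 3.02), with the nearest peak of replicate 2 at 10503 bp. With 3 genes, this class gives values but no share of any weight.

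**Figure D2:**
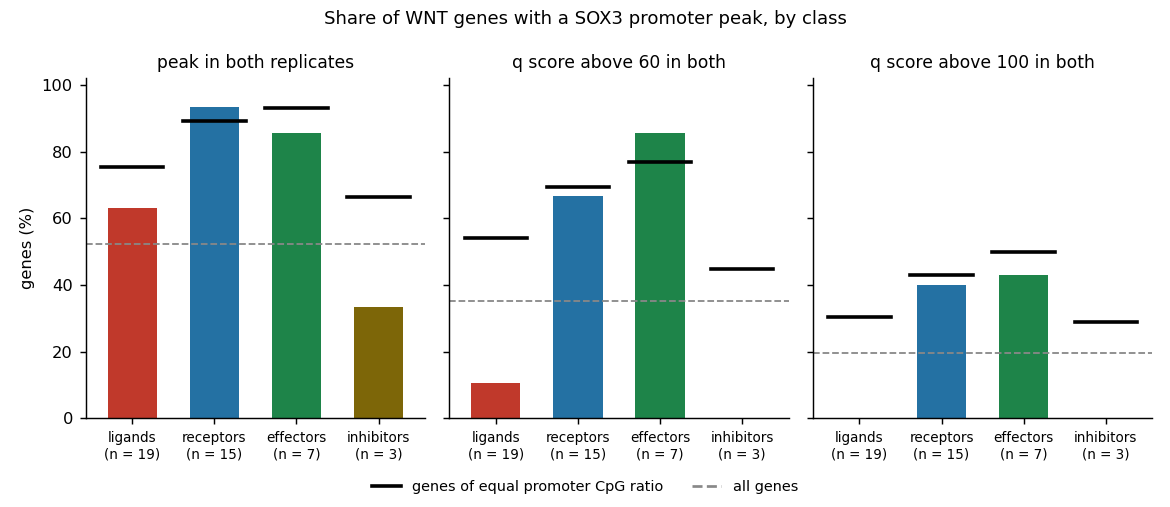
Bars give the percentage of ligands, receptors, effectors and inhibitors with a promoter peak in both replicates (left), with q scores above 60 in both (middle) and above 100 in both (right). Black lines mark the percentage in genes of equal promoter CpG ratio and dashed lines that in all genes. The ligand bar falls from 63.2% to 10.5% to 0%, and the receptor bar stays within 5 percentage points of its black line in all panels.

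To set these classes against promoters of like composition, the CpG ratio (observed over expected CpG dinucleotides in 1 kb around a start site, highest over the start sites of a gene) was used. SOX3 promoter peaks were more frequent and stronger where this ratio was high. Over all 26182 genes it had a Spearman correlation with the q score of 0.783 in replicate 1 and 0.742 in replicate 2, with unbound genes set to 0 and both measures taken on the same promoters. The medians were 0.799 for the 44 WNT genes and 0.539 for all genes. By class they were 0.749 for ligands, 0.82 for receptors, 0.864 for effectors and 0.585 for inhibitors. Each WNT gene was compared with all other genes in its bin of CpG ratio (0.1 wide), and the shares were averaged.

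Genes of equal CpG ratio were bound in both replicates in 82.3% of cases, and the 75.0% of the WNT genes gave a difference of −7.32 percentage points. Replicate 1 alone gave a difference of 2.8 points and replicate 2 alone one of −4.07 points (SD 4.86, n = 2), so the sign was not the same in the replicates. For the ligands the shares were 63.2% and 75.5%, a difference of −12.3 points, with 4.27 in replicate 1 and −8.8 in replicate 2. For the receptors they were 93.3% and 89.1%, a difference of 4.24 points, with 4.37 and 3.38 in the replicates. For the effectors they were 85.7% and 93.1%, a difference of −7.41 points, with 2.32 in replicate 1 and −7.98 in replicate 2. Lef1 was the 1 effector not bound in both. For the 44 genes, the ligands and the effectors the difference changed sign between the replicates. No direction is drawn for how often these were bound.

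The q score separated the classes more. A q score above 60 in both replicates was held by 10.5% of ligands and 54.0% of genes of equal CpG ratio, by 66.7% of receptors and 69.5% of their like, and by 85.7% of effectors and 76.8%. Above 100 in both, the ligands were at 0% and genes of equal CpG ratio at 30.3%, the receptors at 40.0% and 43.0%, and the effectors at 42.9% and 49.9%. The median position of a ligand within its bin of CpG ratio was the percentile 17.0 in replicate 1 and 16.8 in replicate 2. Receptors had median percentiles of 48.4 and 38.6, and effectors of 37.8 and 49.4. Only 2 of the 19 ligands in replicate 1 and 1 in replicate 2 exceeded the median of all genes in their bin. They were Wnt8a and Wnt16, in bins where most genes were unbound, and Wnt1, respectively. The log2 ratio of the strongest promoter peak separated ligands from receptors in replicate 1 only. Its medians there were 3.02 for ligands, 3.83 for receptors and 4.29 for effectors, against 3.67 over all bound genes. In replicate 2 they were 2.61 for ligands, 2.61 for receptors and 2.9 for effectors, against 2.72.

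The ligands also had the lowest median q scores among genes with CpG ratios of 0.7 to 0.9, where the classes overlap most. In this range 7 of 9 ligands, 9 of 9 receptors and 5 of 6 effectors were bound in both replicates, against 90.7% of all 6719 genes. Their median q scores were 68.0 and 39.0 for ligands, 215 and 72.7 for receptors and 197 and 97.1 for effectors, against 216 and 91.5 for all genes. Receptors and effectors of this range were therefore near the level of other genes in replicate 1, and the ligands were below it in both replicates. Wnt9a (CpG ratio 0.999, percentiles 10.0 and 9.15 of its bin) and Fzd3 (1.03, percentiles 79.0 and 59.2) show the contrast for CpG-dense promoters. When genes were matched on GC content as well as CpG ratio, the difference above a q score of 100 was −30.6 points for ligands and −3.8 points for receptors.

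**Figure D3:**
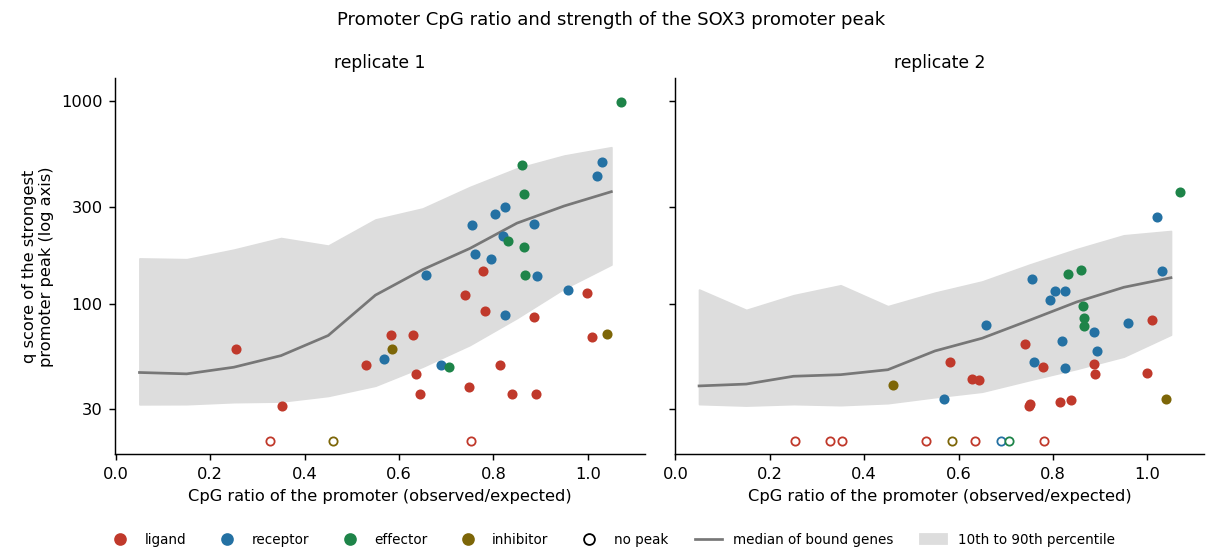
The q score of the strongest promoter peak (vertical log axis) is plotted against the promoter CpG ratio for the WNT genes in replicate 1 (left) and replicate 2 (right), with open symbols for genes without a peak. The grey line is the median of all bound genes in bins of CpG ratio and the band runs from percentile 10 to percentile 90. Most ligands lie below the line, receptors and effectors lie on both sides of it, and Ctnnb1 stands above the band in both replicates.

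The peaks differed in shape as well. The median width of the strongest promoter peak was 1773 and 924 bp for ligands in replicates 1 and 2, 2244 and 1654 bp for receptors and 2626 and 1958 bp for effectors, against 1641 and 1329 bp over all bound genes. A start site lay under that peak at 12 of 17 bound ligands in replicate 1 and 8 of 13 in replicate 2. For receptors this was so at 14 of 15 and 13 of 14, and for effectors at 6 of 7 and 5 of 6, against 86.6% and 84.5% of all bound genes. Among the receptors, 6 Frizzled genes (Fzd1, Fzd2, Fzd7, Fzd8, Fzd9 and Fzd10) consist of 1 exon, and their promoter peaks reached over 21.7% (Fzd10) to 88.1% (Fzd2) of the gene in replicate 1. In replicate 2 the range was from 28.0% (Fzd1) to 53.2% (Fzd7).

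**Figure D4:**
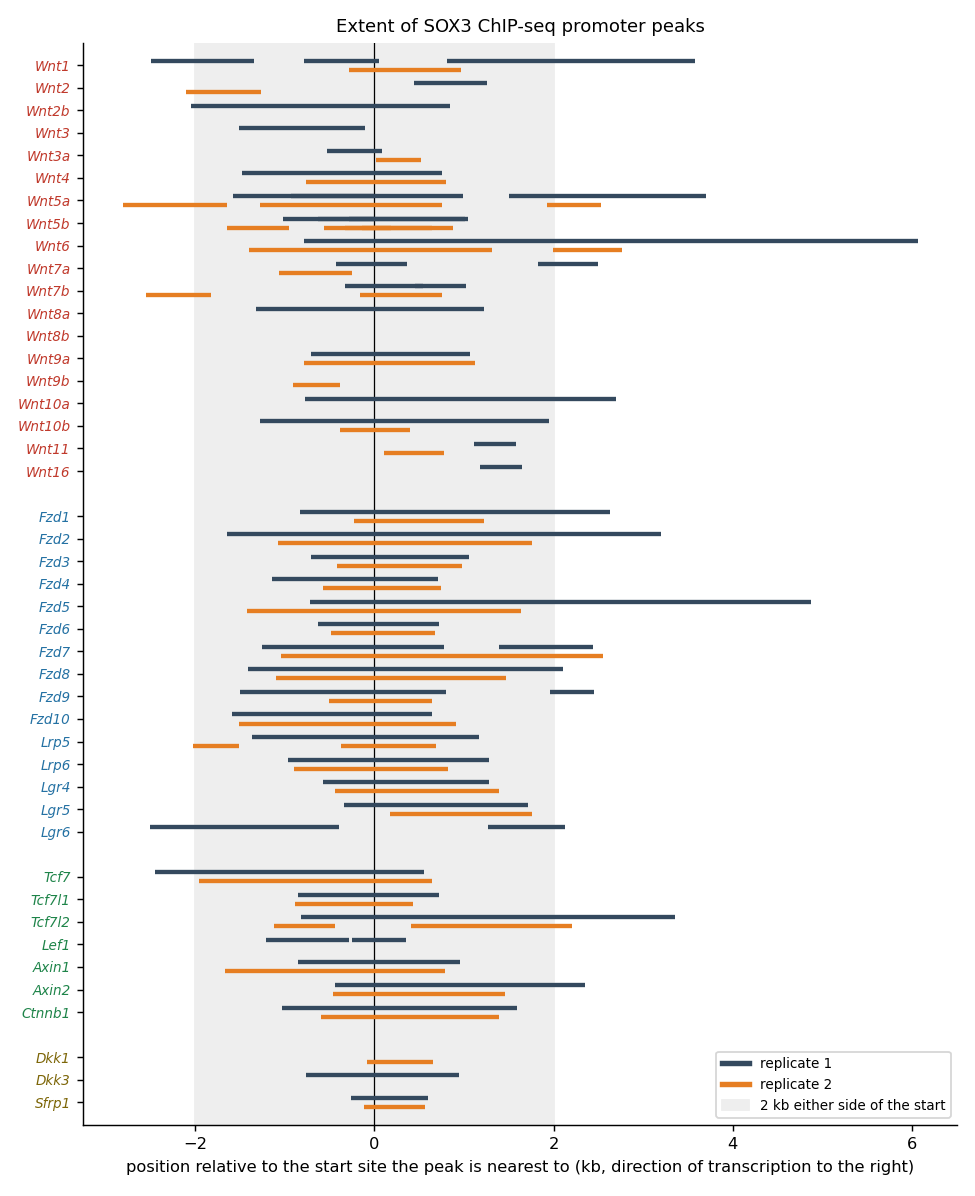
Bars show the extent of each promoter peak of the 44 genes relative to the start site it is nearest to (in kb, transcription to the right), with replicate 1 above replicate 2 and the 2 kb window shaded. Receptor and effector peaks mostly cover the start site in both replicates, whereas Wnt2, Wnt3, Wnt9b, Wnt11 and Wnt16 have peaks beside it.

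Away from promoters, peaks of both replicates that overlapped each other within 20 kb of a gene, and farther than 2 kb from any curated start site, were found near 21 of the 44 WNT genes (47.7%), against 29.2% of all genes. The share over all genes was 25% for genes under 10 kb long, 32.2% for those of 10 to 50 kb and 32.4% for longer ones, and the WNT genes had such pairs at 5 of 12, 10 of 21 and 6 of 11 in the same order. By class they lay near 10 of 19 ligands, 3 of 15 receptors and all 7 effectors. The strongest of these pairs was not on a WNT gene. It lay 24883 bp downstream of the Wnt10a start site (chr1:74816029-74817775 in replicate 1, q scores 218.2 and 120.6) and covered a glycine tRNA gene, n-TGgcc3. The next, 19342 bp upstream of Wnt11 (chr7:98814600-98816941, q scores 122.2 and 71.35), covered 2 proline tRNA genes, n-TPagg7 and n-TPtgg8. Another near Wnt10a, at chr1:74806021-74808802, had q scores of 108.9 and 58.24 and covered no other gene. At Lef1 a pair of overlapping peaks lay 3992 bp upstream of the first start site, with q scores of 66.5 and 62.57, over the noncoding Gm36603. In replicate 1 this was above the 48.8 of the Lef1 promoter peak, and in replicate 2 Lef1 had no promoter peak to compare. Wnt8b, without a promoter peak, had a pair 18460 bp downstream of its start and inside the gene, with q scores of 41.35 and 56.09.

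The other genes of the pathway were taken from a list of 49 that holds no ligand, Frizzled, LRP or TCF gene. Of these, 48 were bound in replicate 1, 40 in replicate 2 and 40 (81.6%) in both, against 79.0% of genes of equal CpG ratio. The Dishevelled proteins and the destruction complex that passes or blocks the signal were bound most strongly, with 10 of 11 genes in both replicates (90.9%, against 83.9% of genes of equal CpG ratio) and median q scores of 381 and 125. The strongest were Apc (496.5 and 148), Csnk1a1 (450.4 and 201) and Gsk3b (450.1 and 164.1), which all act in the destruction of β-catenin. The Gsk3b peaks also covered a start site of BC031361 in both replicates. The Apc peak of replicate 1 also covered a start site of Gm10548, so these peaks cannot be assigned to Gsk3b or Apc alone. Amer1, a membrane partner of Apc encoded on the X chromosome, was bound in replicate 1 only (152.9). All 10 genes of β-catenin co-activators and co-repressors, among them the Tle and Pygo families, were bound in both, against 85.6% of genes of equal CpG ratio, with medians of 258 and 105.

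Of 8 other secreted inhibitors 4 were bound in both, where genes of equal CpG ratio were bound in 58.2% of cases, with medians of 49.3 and 44.5. Their promoters had a median CpG ratio of 0.57, against 0.757 for the 49 genes and 0.539 for all genes. Sfrp4 (109), Wif1 (80.52) and Sfrp5 (32.6) were bound in replicate 1 only, and Dkk4 in neither, its nearest peaks lying at 11870 and 11520 bp. Of 6 genes for R-spondins and their ubiquitin ligases 4 were bound in both (66.7%, against 80.0%), and Rspo3 (41.21) and Rnf43 (40.91) in replicate 1 only. Porcn (69.8), the enzyme that adds the lipid to WNT ligands and lies on the X chromosome, and Nkd2 (74.95), a feedback inhibitor, were also bound in replicate 1 only. The 5 genes grouped as co-receptors were Ror1, Ror2, Ryk, Kremen1 and Kremen2. All 5 were bound in both replicates, against 80.8% of genes of equal CpG ratio, with medians of 98.5 and 50.2. At Kremen2 the peaks of the replicates did not overlap. That of replicate 1 lay 1602 bp from its start site and covered a start site of 9530082P21Rik. Of 6 feedback and target genes 5 were bound in both (83.3%, against 88.4% of genes of equal CpG ratio), with medians of 97.4 and 45.6 and none above 100 in both. Their median position within a bin of CpG ratio was the percentile 17.1 in replicate 1 and 17.0 in replicate 2.

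In SOX3 ChIP-nexus, no peak lay within 2 kb or within 5 kb of a start site of any of the 44 genes. The mouse part of these lists was short, with 110 peaks in replicate 1 and 18 in replicate 2, and 54 and 1 of all genes had one within 2 kb. The nearest WNT gene was Lrp5 at 176103 bp in replicate 1. The ChIP-nexus lists therefore add no position to the WNT promoters, and at this number of peaks they do not show that the sites are absent.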

How the data were processed

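The 44 genes and all gene lists were chosen with earlier results of these data known. The authors aligned the reads to mm10 with Novoalign, removed duplicates with Picard, and called peaks with USeq and MACS2 (version 2.1.1). Their methods do not say which caller made which list and the labels name MACS2 for the SOX3 samples, so that the ChIP-seq lists came from USeq was inferred from their layout and values. The deposited ChIP-seq tables carry no column names, so the meaning of the columns (position, −10log10 of the p-value, q score as −10log10 of the FDR, log2 ratio over input) was inferred from the values. The score and the log2 ratio were used as the authors gave them, within 1 list at a time. The deposited ChIP-nexus lists give fold enrichment, −log10 p-values and a score, of which the positions were used. Reads that fit several places were assigned at random by the authors, which bears on repeated sequence such as tRNA genes.

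Start sites were those of 45756 RefSeq curated transcripts on GRCm38, the assembly of mm10, and GENCODE M21 as an alternative. A gene was bound when a peak with a q score above 30 lay within 2 kb of a start site. Its value was the strongest such peak. CpG ratios were taken in 1 kb around start sites, and each gene was compared with all other genes in its bin (0.1 wide). Values are given per replicate or as mean ± SD (n = 2). No significance test was run. Full values were given for the 2 strongest genes of each class bound in both replicates, for every gene bound in 1 replicate or in neither, and for neighbouring ligand genes. q score limits of 60 and 100 describe strength, and that of 100 was chosen after seeing the data, as were bins by GC content. Overlaps were checked against bedtools (version 2.31.1) and tested on simulated data. Scripts used Python 3.11.15, numpy 2.4.6 and pandas 2.3.3. Other alternatives were windows of 1 and 5 kb, peak midpoints, overlap between replicates, other CpG windows, bins and comparison genes, and leaving out each replicate. Promoters of Fzd8, Sfrp1, Lrp6, Fzd3, Fzd2, Wnt5a, Lgr5, Axin1, Wnt10a, Wnt7b, Fzd6, Lrp5, Dkk3 and Wnt8a were not in the sequence table used. The 15 samples of other factors, marks and inputs were not analysed here. The lists hold no read counts, so precision at a given depth could not be computed.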

Additional observations from a re-analysis of the deposited data

How the results depend on the processing

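Of 107 alternative values of the main results, 90 stayed within the spread between replicates, or for counts within 1.5 times the reported value, 13 moved further and 4 changed sign. Some of the 90 were fixed in advance. Leaving out 1 replicate could not move the mean share bound or the median q score beyond the spread between replicates. Nor could it change the ChIP-nexus count of 0. A q score above 60 left 18 of the 44 genes, 2 ligands and 0 inhibitors bound in both replicates and 23 of the 49 other pathway genes. It lowered the mean share bound to 52.3%, raised the median q score to 128, and moved the difference from genes of equal CpG ratio to −21.4 points. Above 60 in place of 100, that difference was −43.5 points for ligands. For the 44 genes the difference of −7.32 points became 4.41 with a window of 5 kb and 1.84 with GENCODE start sites. For receptors above 100 the difference of −2.95 points became −8.7 with peak midpoints and −11.0 with the CpG ratio in 4 kb.

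Leaving out a replicate gave −4.07 to 2.8 points for the 44 genes, −48.3 to −30.4 for ligands above 100 and −3.0 to 0.369 for receptors above 100. Either replicate alone bound 2 inhibitors. For the 44 genes and for receptors the sign was negative in replicate 2 alone and positive in replicate 1 alone. These values are shares in 1 replicate, whereas the reported differences are shares in both. The difference for ligands above 100 lay between −48.3 and −28.4 points under every alternative run. That limit was chosen after seeing the data, and no ligand exceeded it in both replicates as reported. Settings that changed only the CpG measure, the bins or the comparison genes could therefore give no positive value. The range is no test of the ligand result. With GENCODE start sites Wnt8b was bound in both replicates, by peaks 1302 and 578 bp from a start inside the gene, and Wnt10a in both. A window of 5 kb added a replicate for Wnt2b, Wnt3, Wnt8a, Wnt10a, Lgr6 and Lef1. One of 1 kb removed one for Wnt2, Wnt11 and Wnt16. The causes of these shifts were not tested. No paired analysis was possible because the results come from no test and there is 1 group. The q score grows with depth, and the study lists more total and unique reads for SOX3 replicate 2 than for replicate 1. Levels were therefore not compared across replicates.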

Other observations

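A few values fell outside the comparisons. Wnt6 and Wnt10a lie next to each other on chromosome 1, and 4 pairs of overlapping peaks of the replicates within 20 kb of both lay outside all curated promoters, with q scores in replicate 1 from 37.41 to 77.43. Wnt1 and Wnt10b shared a pair at chr15:98780498-98781172, with q scores of 53.05 and 37.72. Apc2 had its strongest peak in replicate 1 (280.8) over a stretch that also holds the start site of Rps15, a ribosomal protein gene, and its strongest in replicate 2 (51.97) at another start site. Several weak peaks shared the same q score within a list, such as 35.69 at Wnt2, Wnt7b and Wnt11 and 49.76 at Wnt7a, Wnt10a and Lgr6 in replicate 1, so ranks among weak peaks include ties.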
